A study of Homo sapiens with 4 samples.

Results

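*CD24* and 9 further genes that mark tumor stem cells or neural progenitor cells (*CD44*, *PROM1*, *THY1*, *NES*, *MSI1*, *ALDH1A1*, *ALDH1A3*, *BMI1*, and *LGR5*) were followed through 4 libraries of AT/RT-MYC cells. The genes were chosen by name around *CD24*, which had been seen to rise strongly after treatment in both cell lines, and these 10 genes are among the 18066 genes with counts in the deposited table of 18449 symbols. BT-16 and CHLA-266 are established, patient-derived lines of atypical teratoid/rhabdoid tumor, a brain tumor of infancy defined by loss of the SWI/SNF subunit SMARCB1 or, rarely, SMARCA4. Bulk RNA of each line was sequenced before treatment and after 1 µM doxorubicin, 5 µM etoposide (both block topoisomerase II), and 1 µM vincristine (blocks microtubule assembly), given on consecutive days and followed by weeks of regrowth of the surviving cells. There was 1 library per line and condition, so the 2 libraries of a condition are the 2 cell lines and not repeats of 1 culture. For treatment, *p* values measure the change against the spread between libraries of a condition, which includes the difference between the lines. For the lines, they measure the difference against how unevenly the 2 lines responded to treatment. The comparison asks how cells that regrow after chemotherapy differ from the cells before it. The model holds established lines only, without the tissue around a tumor, and the treated libraries come from the cells that survived.

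In a bulk library, fewer cells that express a gene and less RNA per cell cannot be told apart. Depth was 75087193 counts before and 51489712 after treatment in BT-16 (66192504 before and 49849257 after in CHLA-266). As a check of the labels, *SMARCB1* was looked for as absent, and *SMARCA4* and *MYC* as present. *SMARCB1* had 827 to 1394 counts per library, so its RNA was not absent and this part of the check was not met. Counts do not show whether the protein was made. *SMARCA4* had 29429 to 59447 counts and *MYC* 6804 to 14275 counts. Olfactory receptors, which such cells should not use, made up 7.26 and 8.54 CPM (counts normalized to library size after TMM scaling) in the untreated libraries of BT-16 and CHLA-266 and 95.1 and 71.8 CPM in the treated ones. Of 17 markers of blood, endothelial, fibroblast, neuronal, and erythroid cells, edgeR called 7 upregulated and 0 downregulated (0 also at an unadjusted *p* under 0.05 and in DESeq2 with and without the cell line). Their summed level was 20.9 to 28.0 CPM in untreated and 43.7 to 54.2 CPM in treated libraries. Among them, *CD3E* and *HBB* had 0 counts in 3 of the 4 libraries. These shifts move with the treatment, and their part in the values of weakly expressed markers was not tested.

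CD24 is a small, heavily glycosylated protein held in the membrane by a lipid anchor. It binds P-selectin and the inhibitory receptor Siglec-10 of macrophages. CD44 is the main receptor for hyaluronan, and the combination of high CD44 and low CD24 is a common definition of stem-like cells in breast cancer. In brain tumors, PROM1 (CD133), nestin, and musashi-1 are used to mark cells that resemble neural stem cells. ALDH1A1 and ALDH1A3 oxidize retinal to retinoic acid and underlie the dye-based ALDH assay for stem-like cells, BMI1 is a Polycomb protein required for self-renewal, and LGR5 is a receptor for R-spondins that marks stem cells of the intestine.

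RefSeq windows of 300 bases around a transcription start (250 before to 50 after it, build GRCh38.p14) matched 7 of the 10 genes. They are shown for *CD24*, *CD44*, and *NES*, since these genes rose in both cell lines, moved apart, and fell in both. Of several windows, the one nearest the annotated start of the gene was taken. Capitals mark GC boxes (GGGCGG on either strand), the binding motif of SP factors.
*CD24* (chr6:106975578-106975877, minus strand): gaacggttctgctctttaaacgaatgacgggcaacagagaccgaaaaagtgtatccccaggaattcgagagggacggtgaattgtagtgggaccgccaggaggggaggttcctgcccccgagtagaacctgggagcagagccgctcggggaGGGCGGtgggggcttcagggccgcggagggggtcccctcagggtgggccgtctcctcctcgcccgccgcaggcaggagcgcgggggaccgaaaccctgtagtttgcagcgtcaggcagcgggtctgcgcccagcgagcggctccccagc
*CD44* (chr11:35138921-35139220, plus strand): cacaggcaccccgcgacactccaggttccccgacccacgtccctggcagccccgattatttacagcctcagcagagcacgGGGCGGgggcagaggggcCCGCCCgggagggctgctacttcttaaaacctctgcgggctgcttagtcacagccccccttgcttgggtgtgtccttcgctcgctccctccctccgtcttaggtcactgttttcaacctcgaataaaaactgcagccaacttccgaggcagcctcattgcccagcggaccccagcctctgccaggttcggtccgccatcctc
*NES* (chr1:156677358-156677657, minus strand): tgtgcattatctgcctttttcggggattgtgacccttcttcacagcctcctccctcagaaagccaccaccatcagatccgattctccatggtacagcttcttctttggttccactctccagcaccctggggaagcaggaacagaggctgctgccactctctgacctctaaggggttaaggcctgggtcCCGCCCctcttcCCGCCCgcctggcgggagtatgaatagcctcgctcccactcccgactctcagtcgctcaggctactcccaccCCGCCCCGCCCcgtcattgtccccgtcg
A GC box occurred 1 time in the window of *CD24*, 2 times in that of *CD44*, and 4 times in that of *NES*, where the last 2 matches overlap. It was found in 45.0% of all 35116 windows of this length. The motifs TATAAA (11.5% of all windows), CCAAT (34.6%), TGANTCA (AP-1, 7.71%), and CCGGAAGT (ETS factors, 4.14%), searched on both strands, were in none of these 3 windows. The E-box CACCTG, present in 20.6% of all windows, was not in them either and occurred 2 times in *PROM1* and 1 time in *ALDH1A1*. The GC content was 66.7% in *CD24*, 63.3% in *CD44*, and 60.3% in *NES*, against a median of 58.7% over all windows. In *ALDH1A1* it was 40.3%, the lowest of the 7 genes, and in *ALDH1A3* 81.7%, the highest.

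*CD24* (ENSG00000272398, minus strand of chromosome 6 from 106969831 to 106975627 in hg38) had 62 counts before and 1199 after treatment in BT-16 (108 before and 1944 after in CHLA-266). Its TMM-scaled level went from 0.899 to 20.7 CPM in the former line (1.75 to 37.4 CPM in the latter), so both treated libraries lay far above both untreated ones. The level rose 23.1-fold in BT-16 and 21.3-fold in CHLA-266. On the log2 scale, these ratios were 4.52 (exact Clopper-Pearson 95% interval 4.16 to 4.92) and 4.41 (4.13 to 4.71). The intervals cover counting error only and overlap each other. This rise is what the genes were chosen for, so it is given without a test, and the fitted log2 fold change was 4.46 with a standard error of 0.43. Per kilobase of exon, *CD24* moved from the 37.8th to the 74.1st percentile of all genes in BT-16 and from the 41.9th to the 83.8th in CHLA-266. It had 20.0 and 34.9 counts per kilobase in untreated BT-16 and CHLA-266 cells, against a 95th percentile of 4.10 and 3.61 among 388 olfactory receptors in the same libraries. After treatment it had 387 and 628 counts per kilobase, against 26.2 and 21.1. No other annotated gene shares exons with *CD24* at this locus, but pseudogene copies elsewhere can share its reads.

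**Figure D1:**
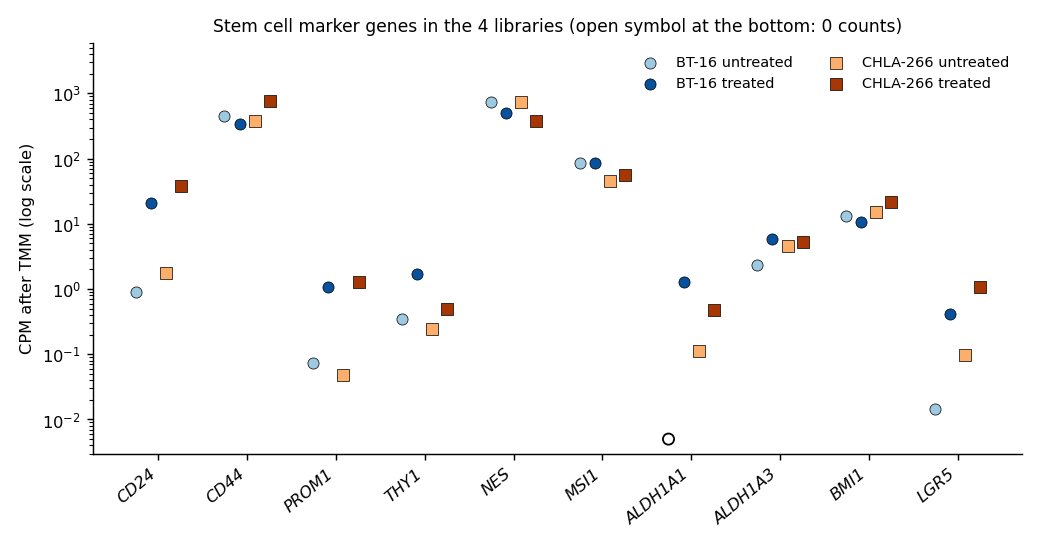
Level of the 10 genes in CPM after TMM scaling (vertical, log scale) in each of the 4 libraries (circles BT-16, squares CHLA-266, dark symbols treated). *CD24* lies between 0.899 and 1.75 CPM before and between 20.7 and 37.4 CPM after treatment, while *CD44*, *NES*, and *MSI1* stay between 46.2 and 778 CPM in every library, and the open symbol at the bottom is *ALDH1A1* with 0 counts in untreated BT-16 cells.

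Of the 10 genes, edgeR (quasi-likelihood, adjusted *p* under 0.05) called 2 upregulated (*CD24* and *PROM1*) and 1 downregulated (*NES*), where it called 16.1% and 19.1% of all 18066 genes in these directions and 35.2% in either. The genes were picked on this contrast, so nothing is read from the count and no *p* values are given for it. Their median change was 1.28 on the log2 scale, against 0.24 over all genes. Within the cell lines, 6 genes were higher after treatment in both lines (48.5% of all genes), 1 was lower in both (36.1%), and 3 had ratios of opposite sign (15.4%), among them *MSI1*, whose interval in BT-16 included 0. The number higher in both lines was 7 with DESeq2 size factors or library totals and 8 with upper-quartile normalization. The scaling sets the zero of these values, since the median of all genes was 0.24 with TMM and 0.59 with upper-quartile normalization, and upregulated genes made up 45.7% of all calls with the former and 69.7% with the latter.

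*CD44* (ENSG00000026508, chromosome 11, 35138882 to 35232402, plus strand) was among the strongly expressed genes in all libraries, at or above the 94.2nd percentile. It had 445 CPM before and 334 after treatment in BT-16 (383 before and 778 after in CHLA-266). Treated CHLA-266 cells were thus the highest and treated BT-16 cells the lowest, and the conditions overlapped. The log2 ratio was -0.41 in BT-16 (interval -0.44 to -0.39) and 1.02 in CHLA-266 (1.00 to 1.05). Counting error is small against this gap, but each ratio rests on 1 pair of libraries and the difference between the lines was not tested. The fit over both lines gave 0.43 (standard error 0.33) on the log2 scale. It was 0.91 without treated BT-16 cells and -0.30 without treated CHLA-266 cells. In level per kilobase of exon, *CD44* exceeded *CD24* 153-fold in untreated and 4.99-fold in treated BT-16 cells, and 67.6-fold and 6.45-fold in CHLA-266 cells. Over the same step, *CD44* itself changed by a factor of 0.751 in BT-16 and 2.03 in CHLA-266. Total counts do not separate the splice forms of *CD44*.

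**Figure D2:**
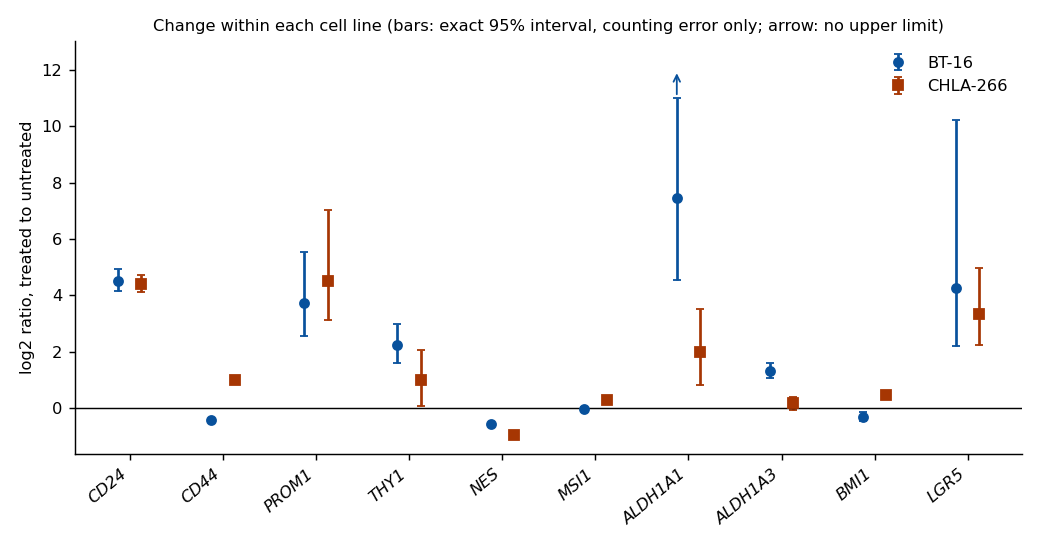
Log2 ratio of treated to untreated counts after TMM scaling for each gene (vertical), in BT-16 (circles) and CHLA-266 (squares), with exact 95% intervals that cover counting error only. *CD24* stands at 4.52 and 4.41, *CD44* at -0.41 and 1.02 on opposite sides of 0, and the arrow on *ALDH1A1* in BT-16 marks an interval without an upper limit because the untreated count was 0.

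*NES* encodes nestin, the intermediate filament of neural progenitors (ENSG00000132688, chromosome 1, 156668763 to 156677407, minus strand), and was the most abundant of the 10 genes per kilobase in 3 libraries. In treated CHLA-266 cells, *CD44* was higher, with 77.9 against 69.0 CPM per kilobase. *NES* had 745 CPM before and 502 after treatment in BT-16 (736 before and 384 after in CHLA-266). The untreated libraries nearly coincided, and both treated libraries lay below them. The fall was smaller in BT-16 (log2 ratio -0.57) than in CHLA-266 (-0.94), and the fit over both lines gave -0.74 (standard error 0.18). The direction held in every alternative, but the call was lost in 6 of 14, namely with upper-quartile normalization (-0.39), library totals (-0.51), a minimum of 10 counts in each library (-0.55), and without untreated BT-16, untreated CHLA-266, or treated CHLA-266 cells (-0.73, -0.75, and -0.55).

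*MSI1* encodes musashi-1, an RNA-binding protein that represses the translation of the Notch inhibitor NUMB (ENSG00000135097, chromosome 12, 120341330 to 120369164, minus strand). It had 87.2 CPM before and 86.6 after treatment in BT-16 (46.2 before and 56.4 after in CHLA-266). Both BT-16 libraries lay above both CHLA-266 libraries, and the log2 fold change with treatment was 0.10 (standard error 0.30). The interval of the log2 ratio in BT-16 was -0.06 to 0.05, and in CHLA-266 it was 0.21 to 0.36.

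*BMI1* (ENSG00000168283, chromosome 10, 22321099 to 22331484, plus strand) had 13.2 CPM before and 10.8 after treatment in BT-16 (15.4 before and 21.4 after in CHLA-266). As with *CD44*, treated BT-16 cells were the lowest and treated CHLA-266 cells the highest. The log2 ratio was -0.29 (interval -0.44 to -0.14) in BT-16 and 0.47 (0.34 to 0.60) in CHLA-266, and the difference between the lines was not tested. The readthrough gene *COMMD3-BMI1*, which shares 1000 bases of exon with *BMI1*, had 0 counts in every library, so reads shared by both were not given to it.

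The remaining 5 genes were weakly expressed. *ALDH1A3* (ENSG00000184254, chromosome 15) had 160 counts before and 340 after treatment in BT-16 (283 before and 270 after in CHLA-266). An antisense RNA shares 1715 bases of exon with this gene, and whether strand was used in counting is not given in the sources used here. The log2 ratio was 1.34 (interval 1.07 to 1.62) in BT-16, while the interval in CHLA-266 included 0 (-0.07 to 0.42). Untreated BT-16 cells were thus the lowest, and the other libraries lay close together at 4.60 to 5.88 CPM.

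*PROM1* (ENSG00000007062, chromosome 4) had 5 counts before and 61 after treatment in BT-16 (3 before and 67 after in CHLA-266). The log2 ratios were 3.74 (interval 2.56 to 5.54) and 4.51 (3.12 to 7.04), with a log2 fold change of 4.22 (standard error 1.00). Without treated CHLA-266 cells the log2 fold change was 4.09 and the gene was not called, in a fit that takes the spread of the lone treated library from the untreated ones. *FGFBP2*, which shares 166 bases of exon with *PROM1* on the same strand, had 24 counts in treated BT-16 cells and 0 elsewhere.

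*LGR5* (ENSG00000139292, chromosome 12) had 1 count before and 24 after treatment in BT-16 (6 before and 56 after in CHLA-266). Both treated libraries were higher, but the log2 ratio of 4.28 in BT-16 had an interval of 2.22 to 10.20 because it rests on a single untreated count. In CHLA-266 the log2 ratio was 3.36 (2.25 to 4.97). *ALDH1A1* (ENSG00000165092, chromosome 9) had 0 counts before and 74 after treatment in BT-16 (7 before and 25 after in CHLA-266). In BT-16, the lower limit of its log2 ratio was 4.55 once the counting error of both libraries was included, with no upper limit. In CHLA-266 it was 4.23-fold higher.

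*THY1* (ENSG00000154096, chromosome 11) encodes a lipid-anchored surface protein of neurons, fibroblasts, and mesenchymal stem cells. It had 24 counts before and 97 after treatment in BT-16 (15 before and 26 after in CHLA-266). The log2 ratio was 2.25 (interval 1.61 to 2.98) in BT-16 and 1.02 (0.07 to 2.06) in CHLA-266. With halved counts, as if both reads of a pair had been counted, the interval in CHLA-266 included 0 (-0.44 to 2.42). *PROM1*, *LGR5*, *ALDH1A1*, *THY1*, and *ALDH1A3* were higher after treatment in both cell lines by their normalized counts, but *LGR5*, *ALDH1A1*, *THY1*, and *ALDH1A3* did not pass the threshold in edgeR over both lines. DESeq2 called *ALDH1A1* and *LGR5* as well, with and without the cell line as a block.

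These 4 weakest genes (*PROM1*, *THY1*, *ALDH1A1*, and *LGR5*) did not exceed the olfactory receptors in counts per kilobase of exon. In treated BT-16 cells, *PROM1* had 8.18, *THY1* 14.1, *ALDH1A1* 26.1, and *LGR5* 4.60 counts per kilobase, against a 95th percentile of 26.2. In treated CHLA-266 cells, they had 8.98, 3.77, 8.80, and 10.7, against 21.1. The olfactory receptors themselves had a median log2 fold change of 4.16 over the 342 with counts, of which 28 (8.19%) were upregulated and 0 downregulated in edgeR (0 also at an unadjusted *p* under 0.05 and in DESeq2). The part of such background in the rise of these 4 genes was not tested. The other 6 genes lay above this percentile in all 4 libraries, *ALDH1A3* by the smallest margin after treatment, with 63.7 and 50.6 counts per kilobase. Set against the 95th percentile of the 17 markers of other cell types, 4 genes lay above in both untreated libraries and 5 in both treated ones. Untreated *CD24* was below that level (BT-16 64.5 and CHLA-266 36.9 counts per kilobase), and treated *CD24* was above it (92.3 and 48.6). This percentile is not a background level, since *SYT1*, a marker in this set, had 964 to 1095 counts in every library. The median of the 17 markers was 1.68 and 0.517 counts per kilobase in untreated BT-16 and CHLA-266 cells.

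**Figure D3:**
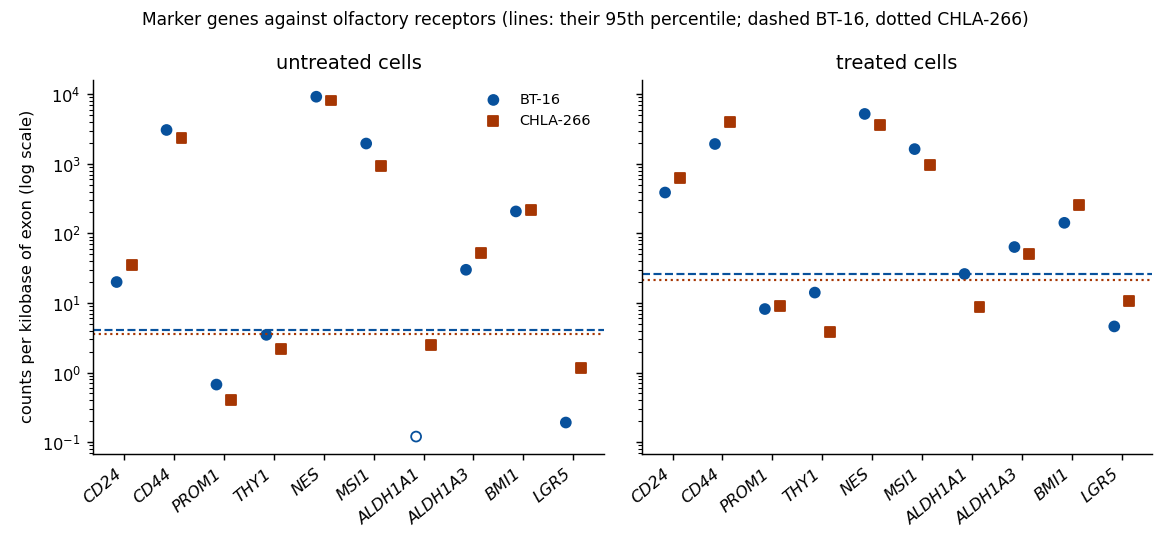
Counts per kilobase of exon (vertical, log scale) of the 10 genes in untreated (left) and treated (right) cells, with the 95th percentile of 388 olfactory receptors as a line for BT-16 (dashed) and CHLA-266 (dotted). The percentile stands at 4.10 and 3.61 before and at 26.2 and 21.1 after treatment, *PROM1*, *THY1*, *ALDH1A1*, and *LGR5* lie at or below it, and an open symbol marks 0 counts.

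The difference between the cell lines was not used to choose the genes and was tested with edgeR's quasi-likelihood test with treatment in the model (n = 2 libraries per line). However, *CD24* was picked for a strong rise in both lines, and this test measures against how unevenly the lines responded. The *p* value of *CD24* is thus not independent of that choice. *CD24* was called higher and *MSI1* lower in CHLA-266 (adjusted *p* under 0.05), while 0.836% and 1.46% of all genes were called in these directions and 2.3% in either. *CD24* had a mean of 10.8 CPM in BT-16 and 19.6 CPM in CHLA-266, with a log2 difference of 0.90 (standard error 0.24, adjusted *p* = 0.0376 in edgeR). CHLA-266 was higher both before (0.96) and after treatment (0.85). The call held in 4 of 9 alternatives, with adjusted *p* values from 0.00885 to 1.00 over edgeR, DESeq2, and limma, and was lost with DESeq2 (adjusted *p* = 0.130) and with limma on the VST values (adjusted *p* = 0.235). *MSI1* had a mean of 86.9 CPM in BT-16 and 51.3 CPM in CHLA-266, with a log2 difference of -0.77 (standard error 0.15, adjusted *p* = 0.00318 in edgeR). CHLA-266 was lower before (-0.92) and after treatment (-0.62), and the call held in 8 of 9 alternatives, the exception being the fit without treatment in the model.

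*CD44* and *BMI1* had log2 differences of 0.50 and 0.61 between the lines, which passed at an unadjusted *p* under 0.05 and not after adjustment (adjusted *p* = 0.309 and 0.274 in edgeR). For *CD44* the difference lay in the treated cells, with -0.22 before and 1.22 after treatment, and for *BMI1* it was 0.23 and 0.99. *CD44* passed in edgeR when scaled by DESeq2 size factors (adjusted *p* = 0.0124), library totals (0.0334), or upper quartile (0.0498), over a range of 0.0124 to 1.00 in 9 alternatives. The other 6 genes did not pass, with adjusted *p* values from 0.799 to 0.999 in edgeR, and the standard errors of *PROM1*, *THY1*, *ALDH1A1*, and *LGR5* were 1.16 to 1.80, so that large differences would not have been detectable at these counts.

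**Figure D4:**
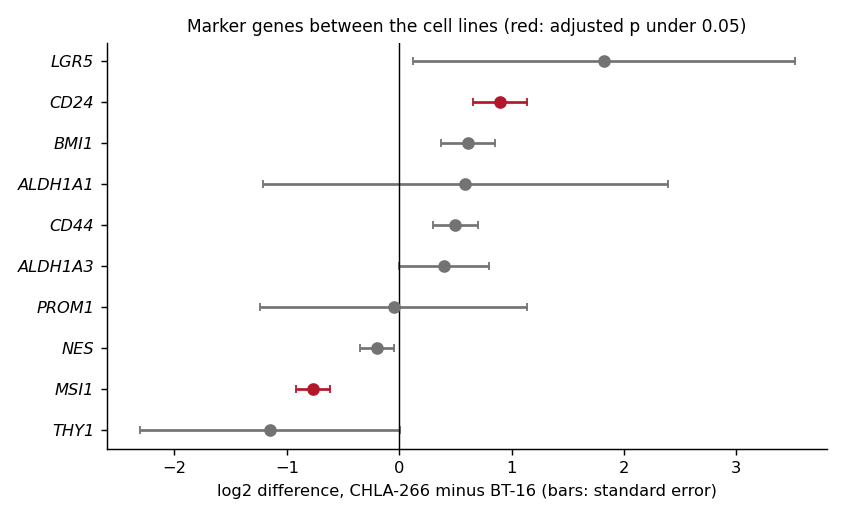
Log2 difference between CHLA-266 and BT-16 with its standard error (horizontal) for each gene, from the fit with treatment in the model. *CD24* (0.90) and *MSI1* (-0.77) are drawn in red as past the threshold, and the 4 genes with few counts have bars of 1.16 to 1.80 on each side.

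By the Euclidean distance to *CD24* over the 4 libraries in centered log2 CPM, the nearest of 12162 genes with a mean of at least 1 CPM were *NPTX2* (0.307), *B3GALT1* (0.529), *ANK1* (0.578), *CDYL2* (0.579), and *PZP* (0.604). *NPTX2*, a neuronal pentraxin, had 120 counts before and 2845 after treatment in BT-16 (194 before and 3682 after in CHLA-266). Before treatment, *B3GALT1*, *ANK1*, *CDYL2*, and *PZP* had only 4 to 14 counts in BT-16 and 10 to 19 in CHLA-266. Olfactory receptors had a median log2 fold change of 4.16, and the part of such background in the rise of these genes was not tested. The likeness rests on 4 libraries and describes a shared step between conditions.

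Genes related to the 10 markers were taken from 9 lists written by name, of which 159 genes had counts. After treatment, edgeR called 45 (28.3%) upregulated and 19 (11.9%) downregulated, against 16.1% and 19.1% of all genes, and 29 of the 45 lay above the 95th percentile of olfactory receptors in both treated libraries. The list with the most upregulated genes held other surface markers of tumor stem cells. In this list, 10 of 19 genes were upregulated, with a median log2 fold change of 2.62, and 0 were downregulated (0 also at an unadjusted *p* under 0.05 and in DESeq2). The 10 were *ITGA6*, *ENG*, *CXCR4*, *NGFR*, *CD9*, *CD36*, *CD70*, *ALCAM*, *DCLK1*, and *PROM2*, the close relative of *PROM1*, and 6 of them lay above the olfactory receptors. Over the alternatives the number ranged from 7 to 15. The list median is the value of *ALCAM*, which did not exceed the olfactory receptors per kilobase in both treated libraries. Olfactory receptors themselves had a median log2 fold change of 4.16, and the part of such background in this list was not tested.

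*CXCR4*, the receptor for the chemokine CXCL12, had 673 counts before and 2825 after treatment in BT-16 and 732 before and 5271 after in CHLA-266 (2.80 on the log2 scale, standard error 0.33, adjusted *p* = 0.000486 in edgeR). *CD9*, a tetraspanin and the most abundant gene of this list per kilobase, had 23123 counts before and 35405 after treatment in BT-16 and 16099 before and 32035 after in CHLA-266 (1.04 on the log2 scale, adjusted *p* = 0.00331). Both genes were higher after treatment in both lines, and both were called in all 14 alternatives.

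A list of 16 genes held partners of CD24 and THY1 and, beside them, *CD47* and its receptor gene *SIRPA*. Of these, 3 were upregulated (*FYN*, *PAG1*, and *ITGAV*) and 3 downregulated (*SRC*, *ITGB5*, and *SIRPA*), with shares near those of all genes. *SIGLEC10*, which encodes the receptor of CD24 on macrophages, had 145 counts before and 26 after treatment in BT-16 (124 before and 55 after in CHLA-266). It was not called (log2 fold change -1.45, adjusted *p* = 0.115 in edgeR). *ITGAV* and *ITGB5*, integrin subunits that pair with each other, moved apart, with log2 fold changes of 1.09 (adjusted *p* = 0.00763) and -1.39 (adjusted *p* = 0.000773 in edgeR).

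Of 22 genes of CD44 and hyaluronan, 9 were upregulated and 2 downregulated, and 7 of the 9 lay above the olfactory receptors. The upregulated genes included the hyaluronan synthases *HAS1* and *HAS3*, the hyaluronan-degrading proteins *HYAL1*, *CEMIP*, and *CEMIP2*, and *SPP1*, which encodes the CD44 ligand osteopontin. *CEMIP2* had 141 counts before and 671 after treatment in BT-16 and 196 before and 863 after in CHLA-266 (2.43 on the log2 scale, adjusted *p* = 0.00155 in edgeR). *EZR*, which encodes ezrin and links CD44 to actin, was the most abundant gene of the list per kilobase and had a log2 fold change of 1.00 (adjusted *p* = 0.00385). *HMMR*, a hyaluronan-binding protein of the mitotic spindle, fell in BT-16 (6689 to 715 counts) and CHLA-266 (8082 to 411 counts), a change of -3.49 on the log2 scale (adjusted *p* = 3.7e-05 in edgeR).

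**Figure D5:**
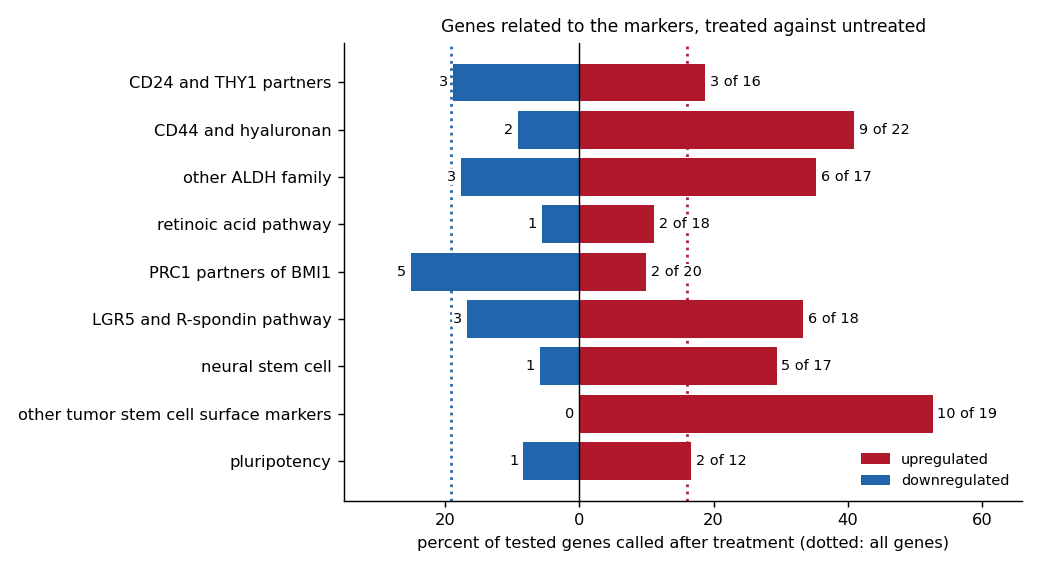
Share of the tested genes of each related list that were upregulated (red, to the right) or downregulated (blue, to the left) after treatment in edgeR, with the number of genes beside each bar and the share of all genes as dotted lines (16.1% and 19.1%). Surface markers show 10 of 19 genes upregulated and 0 downregulated, and the partners of BMI1 show 5 of 20 downregulated.

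In the ALDH family without *ALDH1A1* and *ALDH1A3*, 6 of 17 genes were upregulated and 3 downregulated, and 3 of the 6 lay above the olfactory receptors. *ALDH3A1*, the most abundant per kilobase, had 10911 counts before and 14980 after treatment in BT-16 and 6287 before and 9938 after in CHLA-266 (0.79 on the log2 scale, adjusted *p* = 0.0334 in edgeR), and without untreated CHLA-266 cells it was 0.51 with an adjusted *p* of 0.176 (range 1.38e-07 to 0.176 in 14 alternatives). *ALDH1L1*, a folate enzyme, rose in BT-16 (5 to 216 counts) and CHLA-266 (10 to 149 counts), by 4.80 on the log2 scale (adjusted *p* = 0.0015 in edgeR) without exceeding the olfactory receptors per kilobase in both treated libraries. The mitochondrial *ALDH1B1* fell (log2 fold change -1.13, adjusted *p* = 0.00121). Among 18 genes of the retinoic acid pathway, 2 were upregulated (1 of them above the olfactory receptors) and 1 was downregulated. In DESeq2, with upper-quartile normalization, and with library totals, 4 were upregulated. *CYP26B1*, which degrades retinoic acid, rose in BT-16 (75 to 716 counts) and CHLA-266 (28 to 344 counts), by 3.62 on the log2 scale (adjusted *p* = 0.00169 in edgeR). *CRABP2*, a carrier of retinoic acid, had a log2 fold change of -1.05 (adjusted *p* = 0.0405) and passed in 6 of 14 alternatives. It was lost without untreated BT-16, untreated CHLA-266, or treated CHLA-266 cells (adjusted *p* = 0.125, 0.0865, and 0.149, in a range of 0.012 to 0.149). *RDH11*, the most abundant gene of the list, had a log2 fold change of -0.31 (adjusted *p* = 0.227 in edgeR).

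Of 20 partners and targets of BMI1 in Polycomb repressive complex 1, 2 were upregulated and 5 downregulated, and 8 were downregulated with the cell line as a block. *RNF2*, a catalytic subunit, fell in BT-16 (2398 to 745 counts) and CHLA-266 (2172 to 642 counts), a change of -1.47 on the log2 scale (adjusted *p* = 0.000864 in edgeR). *RING1*, which encodes the alternative catalytic subunit, had a log2 fold change of -0.11 (adjusted *p* = 0.723 in edgeR) and was not called. Without untreated CHLA-266 cells, 3 genes of this list were downregulated. *CDKN2B*, a cell cycle inhibitor that the complex represses in other cells, rose in BT-16 (594 to 1810 counts) and CHLA-266 (651 to 2502 counts), by 2.05 on the log2 scale (adjusted *p* = 0.000707). *CDKN2A*, a cell cycle inhibitor gene that the complex likewise represses, moved the other way and fell in BT-16 (3293 to 1194 counts) and CHLA-266 (2275 to 960 counts), a change of -1.11 on the log2 scale (adjusted *p* = 0.0041 in edgeR). It was named after its values were seen. *CBX6*, the most abundant of the list, had a log2 fold change of -0.42 (adjusted *p* = 0.0887 in edgeR), which passed with the cell line as a block (adjusted *p* = 0.0212, in a range of 0.0212 to 0.76).

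Of 18 genes of the LGR5 and R-spondin pathway, 6 were upregulated and 3 downregulated, and 4 of the 6 lay above the olfactory receptors. *ZNRF3*, a ubiquitin ligase that removes Wnt receptors, fell in BT-16 (3198 to 1290 counts) and CHLA-266 (2641 to 776 counts), a change of -1.26 on the log2 scale (adjusted *p* = 0.00394 in edgeR). *LRIG1*, an inhibitor of EGF receptors that also marks stem cells, rose in BT-16 (27 to 211 counts) and CHLA-266 (33 to 153 counts), by 2.83 on the log2 scale (adjusted *p* = 0.00643). *LGR4*, the relative of *LGR5* with the most counts, had a log2 fold change of -0.28 (adjusted *p* = 0.362) and passed only without treated CHLA-266 cells (adjusted *p* = 0.0282, in a range of 0.0282 to 0.963).

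Among 17 further genes of neural stem cells, 5 were upregulated (*SOX9*, *GFAP*, *SLC1A3*, *OLIG2*, and *EMX2*, of which 2 lay above the olfactory receptors) and 1 was downregulated. *SOX9* rose in BT-16 (6 to 520 counts) and CHLA-266 (6 to 508 counts), by 6.64 on the log2 scale (standard error 0.48, adjusted *p* = 2.7e-05 in edgeR). *SOX2* fell in BT-16 (26819 to 13999 counts) and CHLA-266 (23399 to 13687 counts), a change of -0.60 on the log2 scale (adjusted *p* = 0.019) and passed in 9 of 14 alternatives. In edgeR it was lost with upper-quartile normalization (-0.26, adjusted *p* = 0.199), library totals (-0.38, adjusted *p* = 0.0692), and a minimum of 10 counts in each library (-0.42, adjusted *p* = 0.0502). It was also lost without untreated BT-16 or untreated CHLA-266 cells (-0.59 and -0.62). Adjusted *p* values ranged from 0.000911 in DESeq2 with the block to 0.199. Of 12 pluripotency genes with counts, 2 were upregulated and 1 was downregulated. *SALL4* rose in BT-16 (6566 to 12310 counts) and CHLA-266 (6560 to 12652 counts), by 1.18 on the log2 scale (adjusted *p* = 0.00121 in edgeR), and *DNMT3B*, a DNA methyltransferase, fell in BT-16 (827 to 194 counts) and CHLA-266 (1049 to 89 counts), a change of -2.51 on the log2 scale (adjusted *p* = 0.0022).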

How the data were processed

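RNA of 2 untreated and 2 treated AT/RT-MYC cell line cultures was sequenced with paired ends after a stranded kit that amplifies small amounts of RNA. The authors trimmed the reads, aligned them with STAR to hg38, counted them per gene, added symbols, and removed genes of sex chromosomes and repeatedly counted genes. How pairs of reads and strand were counted is not given in the sources used here. The authors deposited estimated counts without normalization (rounded here, as 5 values of 2 genes had decimals) and log2 values from the variance-stabilizing transformation (VST) of DESeq2 for 17553 genes.

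After removal of 383 symbols without counts, 18066 genes were fitted with edgeR 4.0.16 in R 4.3.3 (quasi-likelihood, TMM, Benjamini-Hochberg adjustment over all genes), with treatment alone for treated against untreated cells and with treatment and cell line for CHLA-266 against BT-16. Libraries of a cell line are paired by the line itself. Across 12620 genes, the deviations of paired libraries from the mean of their condition were correlated at 0.263. With 2 libraries against 2, the smallest two-sided *p* of an exact permutation test is 0.333, and calls rest on a spread estimated across genes. Within a line, 0.5 counts were added to each count, and intervals are exact Clopper-Pearson at 95%. These intervals hold no other error, and should be wider if each read of a pair was counted. Exon lengths come from GENCODE 44 on hg38, which held 18357 symbols. Where not stated otherwise, adjusted *p* values are from edgeR.

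The genes and lists were chosen with earlier results of these data known. All 10 genes are described. From each related list, the gene of smallest adjusted *p* in each direction and the most abundant per kilobase are given with values. Other genes are named after their values were seen. Alternatives were DESeq2 1.42.0, a block for the cell line, other scalings, filters on low counts, limma 3.58.1 on VST values, halved counts, and each library left out. The fits were also run on simulated counts, drawn as independent libraries with less spread than these data have. That run does not show how the fits behave on these data.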

Additional observations from a re-analysis of the deposited data

Results flagged for a closer look

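*CD44*, *MSI1*, *BMI1*, *RDH11*, and *VIM* had ratios of opposite sign in the cell lines, as 15.4% of all genes did. For *MSI1* the interval in BT-16 included 0, and the number of the 10 markers higher in both lines was 6 with TMM and 7 to 8 with other scalings. The log2 ratio (treated over untreated) in BT-16 and CHLA-266 was -0.41 and 1.02 for *CD44*, -0.29 and 0.47 for *BMI1*, and -0.01 and 0.29 for *MSI1*. It was -0.64 and 0.03 for *RDH11*, a retinol dehydrogenase, and -0.33 and 0.29 for *VIM*, the intermediate filament vimentin. With 1 library per line and condition, the difference between the lines was not tested.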

How the results depend on the processing

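Treated against untreated, the number of upregulated markers was 2 in edgeR, 4 in DESeq2 with and without the block and in limma on the VST values, 1 with a minimum of 10 counts in each library, and 2 to 4 with each library left out. The number downregulated was 1, and 0 with upper-quartile normalization, library totals, and the filter on 10 counts, and 0 to 1 with each library left out. Across the other alternatives these numbers were the same or within 1.5 times. The cell line as a block (pairing of the libraries) gave 2 and 1 and changed no call of a marker. Of the 159 related genes, 45 were upregulated (39 to 44 with each library left out) and 19 downregulated, 47 and 25 with the block, and 12 downregulated with upper-quartile normalization and library totals (12 to 21 with each library left out). Between the cell lines, 1 marker was higher in CHLA-266. This number was 0 in edgeR without treatment in the model (0 markers also at an unadjusted *p* under 0.05), in DESeq2, in limma, and with both filters on low counts, and 2 when scaled by upper quartile, library totals, or DESeq2 size factors. The number lower was 1, and 0 without treatment in the model. The log2 fold change with treatment changed sign with 1 library left out for *CD44* (-0.30 to 0.91), *MSI1* (-0.29 to 0.63), and *BMI1* (-0.40 to 0.58). The difference between the lines did so, as a value without a test, for *CD44* (-0.19 to 1.22), *PROM1* (-0.53 to 0.29), *NES* (-0.39 to 0.01), *ALDH1A1* (-1.41 to 5.87), and *ALDH1A3* (-0.18 to 1.01). It also did so for *PROM1* without treatment in the model (0.25), in limma (0.02), and with halved counts (0.28), and for *ALDH1A1* without treatment in the model (-1.10) and in limma (-0.05). The causes were not tested. Over all genes, 151 were higher and 264 lower in CHLA-266. These numbers were 0 and 0 without treatment in the model (which then goes into the spread), 108 and 163 in DESeq2, 272 and 408 with its size factors, 239 and 379 with upper-quartile normalization, 212 and 477 with library totals, 45 and 85 with the filter on 10 counts, and 54 and 107 with the filter of edgeR. Over all alternatives, the number upregulated was 2 to 6 for the list with partners of CD24 and THY1 and 6 to 10 for hyaluronan. It was 3 to 7 for ALDH, 1 to 4 for retinoic acid, 4 to 8 for LGR5, 2 to 8 for neural stem cell, and 2 to 3 for pluripotency genes. Without untreated BT-16 cells, 1 hyaluronan gene was down, the retinoic acid pathway had 1 up and 0 down and the neural stem cell genes 0 down. Without treated BT-16 cells, these were 1 hyaluronan gene, 2 retinoic acid genes, and 3 pluripotency genes down. Without untreated CHLA-266 cells, 1 hyaluronan gene, 3 Polycomb genes, and 0 retinoic acid or neural stem cell genes were down, and without treated CHLA-266 cells 0 retinoic acid genes.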

Other observations

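Of the 159 related genes, 9 differed between the cell lines in edgeR with treatment in the model, 4 higher and 5 lower in CHLA-266, where 2.30% of all genes were called. *STRA6*, the receptor for retinol-binding protein, had 2416 counts before and 1672 after treatment in BT-16 and 288 before and 166 after in CHLA-266 (log2 difference -3.04, adjusted *p* = 2.02e-10). *RDH10*, which makes retinal, was higher in CHLA-266 (0.80, adjusted *p* = 0.0145), and so was *HAS3* (0.78, adjusted *p* = 0.00285), which makes hyaluronan. *SPP1* rose with treatment and was lower in CHLA-266, with 619 and 12608 counts against 3633 and 22130 in BT-16 (-1.50, adjusted *p* = 8.1e-05). *DPPA4*, a gene of pluripotent cells, had 652 counts before and 462 after treatment in BT-16 and 0 before and 24 after in CHLA-266 (adjusted *p* = 2.07e-06). *TNFRSF19* had 9999 counts in untreated CHLA-266 cells and 709 to 1019 in the other libraries, with a log2 difference of 1.89 (adjusted *p* = 0.00343). *CXCR4* was higher and *ALDH3A1* and *HYAL1* were lower in CHLA-266 (0.68, -0.53, and -1.02). Of 9 alternatives, the call held in 8 for *STRA6* and *HAS3*, in 6 for *SPP1* and *ALDH3A1*, in 5 for *RDH10*, *HYAL1*, and *TNFRSF19*, and in 4 for *CXCR4*, and it held in 6 of 8 for *DPPA4*. These genes were named after their values were seen.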
